A study of Mus musculus with 19 samples.

Results

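DR-derived hepatocytes of chronically injured mouse liver, called GREEN, were compared with native hepatocytes of healthy liver, called CTL. The comparison took 1 library per sample and 10 of the 15 samples of the series, 5 in each group, and covered the 35274 genes of the deposited tables. Of these genes 15798 had enough counts to be tested. All animals carried OPN-CreERT2 and Rosa26R-mT/mG, a Cre recombinase driven by osteopontin (Spp1) that acts after tamoxifen, and a reporter that turns from red to green fluorescence in cells that had active Cre and in their descendants. The liver status was control for CTL and chronic injury for GREEN. The labels do not spell out DR and do not give the injury, its length, the age or sex of the animals, or how cells were sorted. The library codes of the injured samples begin with 16w, which the labels do not explain. GREEN cells therefore differ from CTL cells in lineage, in reporter color and in the state of the liver, and these cannot be told apart here. The 5 samples of native red hepatocytes of injured liver, called RED, entered no test and are given as levels only. Library codes of RED samples recur in GREEN, so some RED and GREEN samples may come from the same animals.

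Hepatocytes secrete most plasma proteins, make bile acids and detoxify drugs, under transcription factors such as Hnf4a. Bile duct cells, or cholangiocytes, line the ducts that drain bile, and are marked by keratins such as Krt19, by Epcam and by Sox9. In chronic injury duct-like cells expand between the portal tracts and the hepatocyte plates, and the YAP and Notch pathways are known to favor duct over hepatocyte genes.

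Libraries of experiment 1 (CTL 3, CTL 4, GREEN 4 and GREEN 5) were made by poly(A) selection and held 28112747 to 34216692 estimated counts. Those of experiment 2 (CTL 1, CTL 2, CTL 5, GREEN 1, GREEN 2 and GREEN 3) were made after removal of ribosomal RNA and held 40046043 to 44177424. GREEN 3 and GREEN 4 carry the same code in their descriptions, so they may come from 1 animal; results were also computed without both. The first principal component, with 81.7% of the variance, separated all CTL from all GREEN libraries, and GREEN 1 and GREEN 2 lay nearest to CTL. RNA of Y-linked genes was high in CTL 1, CTL 4, CTL 5, GREEN 3 and GREEN 4 and low in the other 5 libraries. The few most abundant genes took more of the CTL libraries: the top 20 genes of each held 25.2% to 33.2% of the counts in CTL and 16.8% to 25.3% in GREEN. The scaling factors of the trimmed mean of M values (TMM) were 0.594 to 0.851 in CTL and 1.106 to 1.612 in GREEN.

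Differences between the groups reached through the whole transcriptome. In edgeR's quasi-likelihood F test with experiment as a term, at a Benjamini-Hochberg adjusted p under 0.05, 7769 genes (49.2% of those tested) differed, of which 4066 (25.7%) were higher and 3703 (23.4%) lower in GREEN. Rises were larger than falls: 3284 genes rose over 2-fold and 1185 fell over 2-fold. GREEN lay above CTL in every sample for 3122 genes (19.8%) and below it in every sample for 2065 genes (13.1%). Over all genes tested the log2 fold change had a median of -0.02 with TMM and 0.81 with scaling by library totals, a shift of the whole scale that decides the small falls. By library totals 9301 genes were higher and 358 lower, so that 96.3% of the calls were rises against 52.3% with TMM, and 454 genes were called in opposite directions. Experiment 2 alone called 2405 genes higher and 692 lower, 77.7% of them rises, and without GREEN 3 and GREEN 4 the counts were 2992 and 1916. Counts of list members given below are to be read beside the 25.7% higher and 23.4% lower of all genes tested. Those under an alternative are to be read beside its own counts over all genes.

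**Figure D1:**
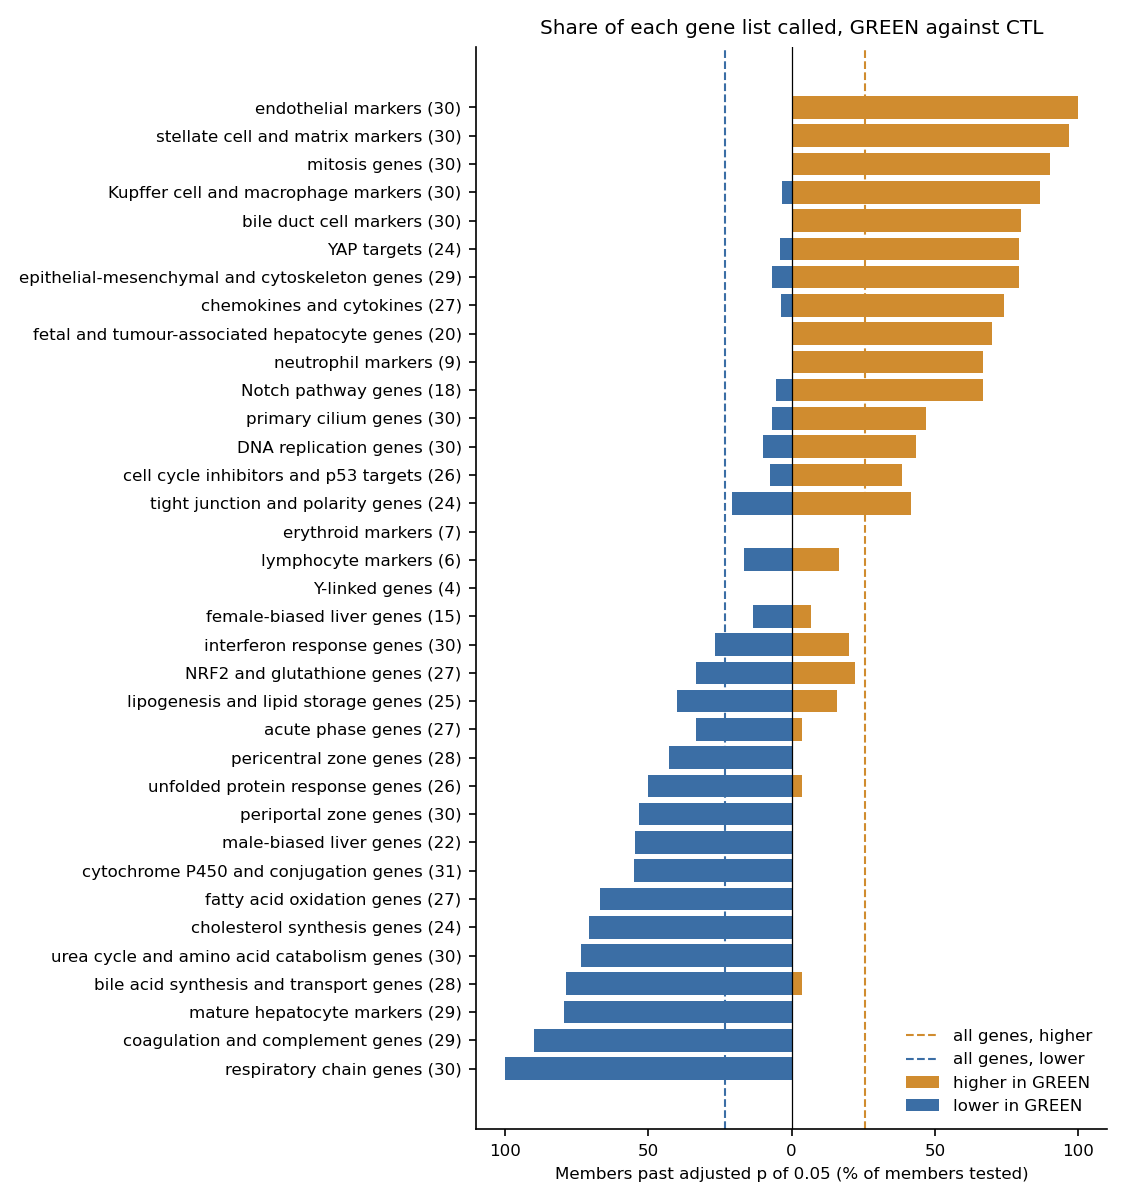
Share of the tested members of each gene list that passed an adjusted p of 0.05, as percent to the right for genes higher in GREEN and to the left for genes lower in GREEN, with the number tested in brackets. The dashed lines mark the shares over all genes, 25.7% and 23.4%; endothelial, stellate cell and mitosis lists stand far to the right and coagulation and respiratory chain lists far to the left.

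The largest rises were in genes that CTL lacked or nearly lacked, several of them of bile duct epithelium. Such genes passed the count filter through GREEN alone and could only rise, so their place at the top follows from the selection. Among protein-coding genes of at least 5 CPM (counts relative to library size, here with TMM factors) in the higher group, the 12 largest rises were Lamc3, Mmp7, Kif12, Msmp, Ankrd1, Scara3, Cftr, Krt19, Cldn4, Cldn8, Cldn6 and Frem2. The 5 CTL libraries together held 0 counts of Mmp7, Kif12, Msmp, Cftr, Cldn8, Cldn6 and Frem2, and 1 to 3 counts of the others. Mmp7 (chr9:7692090-7699585 in GRCm38), a matrix-degrading protease, was at least 1838-fold higher in GREEN, taking 3 counts over the CTL group as the floor. On the same scale Kif12, a kinesin motor, was at least 1801-fold, Msmp, a secreted microseminoprotein, at least 1616-fold, and Frem2, a basement membrane protein, at least 417-fold higher. Cftr (chr6:18170687-18322768), the chloride channel of bile duct cells, held 2.31, 6.61, 29.3, 42.2 and 15.1 CPM in GREEN 1 to GREEN 5 and was at least 973-fold higher. GREEN 1 and GREEN 2 had the lowest Cftr levels of the group. Genes named here had to lie above CTL in every GREEN library, so that trait follows from the rule. Lamc3 (chr2:31887291-31946539), a laminin chain, had 1 count in CTL and 33769 in GREEN, a ratio of 19361 with a 95% counting interval of 3475 to 764728. Scara3, a scavenger receptor, had 3 and 49507 counts, a ratio of 9461 (3237 to 45880). The call of Mmp7 ended with DESeq2.

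Markers of bile duct cells rose as a group. Of 30 tested, 24 rose and 0 fell, 23 of them without overlap between the groups, and the median log2 fold change was 4.64 against -0.02 over all genes. Krt19 (chr11:100140810-100148665), a keratin of bile ducts, held 0, 0, 0, 0.0599 and 0 CPM in CTL 1 to CTL 5 and 8.61, 14.3, 70.4, 90.9 and 76.9 CPM in GREEN 1 to GREEN 5. The single CTL read gives a ratio of 7772 with a counting interval of 1395 to 307001. Epcam (chr17:87635979-87651129), an epithelial adhesion molecule, held 0.028, 0, 0, 0 and 0.61 CPM in CTL and 12.2, 27.1, 105, 141 and 84.5 CPM in GREEN, a log2 fold change of 8.86 (standard error 1.15, adjusted p = 0.000328). Both genes were lowest in GREEN 1 and GREEN 2 within the GREEN group and did not overlap CTL. Cldn4, a tight junction protein, had 1 count in CTL and a ratio of 6035 (counting interval 1083 to 238386), and Cd24a, a surface glycoprotein of ducts and progenitors, rose by 10.77 on the log2 scale. Krt7, another duct keratin, rose by 5.49.

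Sox9 (chr11:112782224-112787760), a transcription factor of ducts and of some periportal hepatocytes, held 34.8, 6.77, 1.12, 7.96 and 10.1 CPM in CTL and 42.8, 84.1, 160, 118 and 115 CPM in GREEN. Its groups did not overlap, with CTL 1 close to GREEN 1, and its log2 fold change was 3.32 (standard error 0.76, adjusted p = 0.00563), a call that ended in experiment 2 alone. Spp1 (chr5:104435118-104441050), which encodes osteopontin and whose regulatory sequence drives the Cre, held 17.2, 4.88, 7.03, 124 and 308 CPM in CTL and 427, 542, 2239, 6842 and 3497 CPM in GREEN. Every GREEN sample stood above every CTL sample, and the log2 fold change was 4.43 (standard error 1.40, adjusted p = 0.0251). The Spp1 call ended with DESeq2, in experiment 2 alone, without CTL 4, without GREEN 3 and without GREEN 3 and GREEN 4 together. RED samples, red by the reporter, held 158 ± 148 CPM (SD, n = 5) of Spp1 and 0.50 ± 0.26 CPM of Krt19.

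As a share of all counts in a library, which needs no scaling factor, bile duct markers took 0.186% to 0.334% in CTL and 0.363% to 1.985% in GREEN. GREEN 2 was the lowest GREEN library and GREEN 4 the highest. A few abundant members weighed most in these sums. Spp1 held 6842 of 12347 CPM in GREEN 4, and Lcn2, also an acute phase gene, 1622 of 5316 CPM in GREEN 1. In CTL, where Krt19, Epcam and Cftr were at or near 0, other members made up the share. These shares are therefore no measure of duct cell RNA alone. Mature hepatocyte markers took 17.3% to 21.0% in CTL and 8.41% to 15.7% in GREEN. GREEN 1 and GREEN 2, at 15.7% and 15.6%, lay nearest to CTL, and GREEN 3, GREEN 4 and GREEN 5, at 10.7%, 8.41% and 10.2%, were lower. In RED, the bile duct markers took 0.228% to 0.540% and the hepatocyte markers 16.2% to 17.8%. In bulk samples fewer cells of a type and less RNA per cell cannot be told apart. GREEN libraries held RNA of both kinds, and whether single cells did was not measured.

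**Figure D2:**
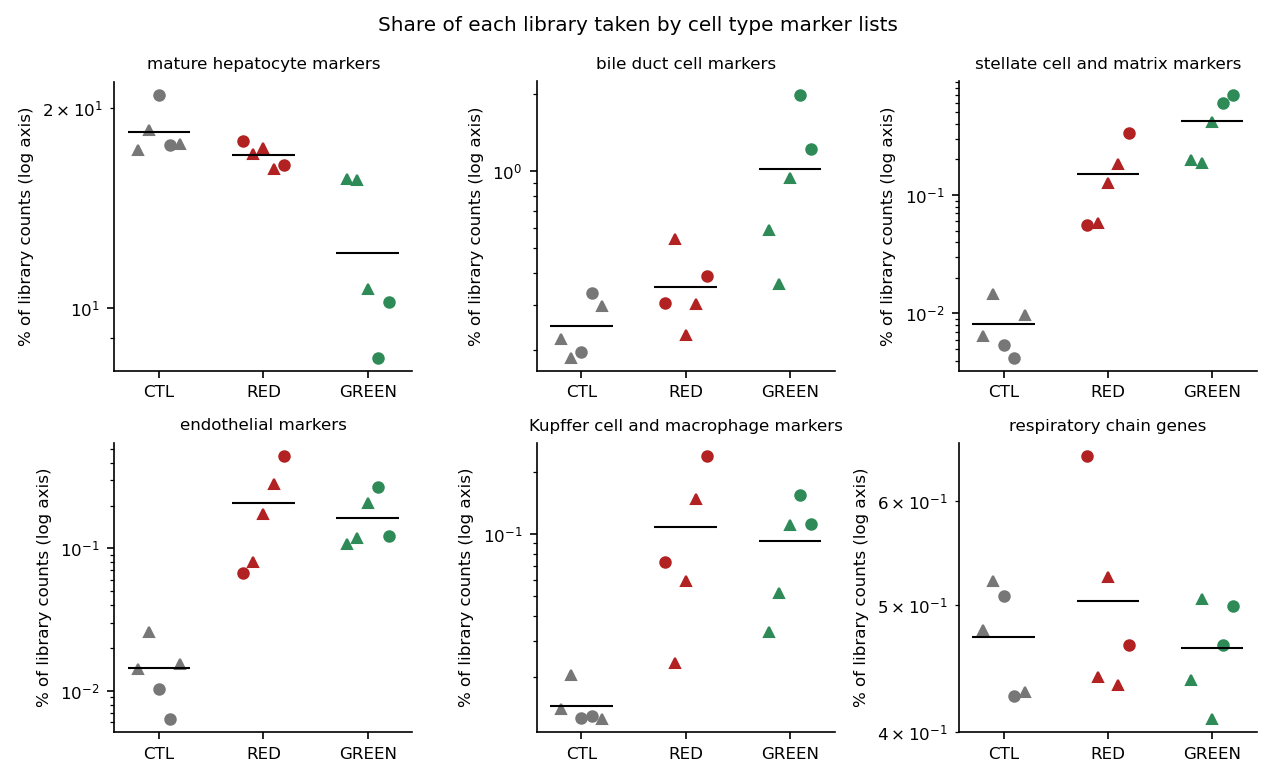
Percent of each library's counts (log axis) taken by 6 gene lists in CTL, RED and GREEN. Each point is 1 sample, circles are experiment 1 and triangles experiment 2, and lines are group means; hepatocyte markers were 8.41% to 15.7% in GREEN and 17.3% to 21.0% in CTL, while the respiratory chain shares of these groups overlapped.

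RNA of stromal, vascular and immune cells was also higher in GREEN. All 30 endothelial markers rose (30 without overlap, median 2.89), 29 of 30 stellate cell and matrix markers rose (29 without overlap, median 5.15), and of 30 Kupffer cell and macrophage markers 26 rose and 1, Cd163, fell (median 2.63), with 17 and 0 in experiment 2 alone. Col1a1 (chr11:94936224-94953042), a chain of type I collagen, held 0.841, 1.14, 2.08, 1.08 and 2.79 CPM in CTL and 173, 176, 256, 180 and 333 CPM in GREEN, a log2 fold change of 7.12 (standard error 0.44, adjusted p = 5.23e-05). Col1a1 was about level in GREEN 1, GREEN 2 and GREEN 4, but the stellate cell and matrix list was lowest in GREEN 1 and GREEN 2. Its shares of all counts were 0.197% and 0.187% there and 0.412%, 0.601% and 0.706% in GREEN 3, GREEN 4 and GREEN 5. The endothelial and macrophage shares were also lowest in GREEN 1 and GREEN 2, as the duct genes were. For the endothelial list GREEN 5 was close, at 0.122% against 0.108% and 0.118%, and its summed CPM was the lowest of the group, at 825. Fbln2, a matrix fibulin, rose by 8.51, Loxl1, an enzyme of elastic fibers, by 8.06, and Dcn, decorin, by 3.98. Mfap4 and Lox, also of the fiber matrix, had 1 CTL count each and ratios of 1679 (counting interval 301 to 66350) and 678 (121 to 26789). The stellate cell genes Reln and Lrat rose by 3.16 and 2.85.

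Among vascular genes Cd34 rose by 4.33, Lyve1 of sinusoids and lymph vessels by 4.07, Robo4 by 3.58, Emcn by 3.45, Cdh5, the cadherin of endothelial junctions, by 3.00, Clec4g by 2.86, Pecam1 by 2.40 and Stab2, a scavenger receptor of sinusoids, by 1.85. Among macrophage genes Gpnmb rose by 6.15, Cd14 by 4.08, Cx3cr1 by 4.03, Lyz2, lysozyme, by 3.75, Ptprc, the pan-leukocyte CD45, by 2.74, and Adgre1, F4/80, by 2.24. The Kupffer cell receptor Clec4f rose by 1.25 with overlapping groups, and its call ended in 13 of 23 alternatives, among them without CTL 1, CTL 3, CTL 4, CTL 5, GREEN 3 or GREEN 4. Of 9 neutrophil markers tested 6 rose, with S100a9 at 5.37 and S100a8 at 5.13. Both S100 genes were highest in GREEN 4 (18.3 and 10.1 CPM) and GREEN 5 (10.4 and 4.47 CPM) and at most 1.51 CPM in the other 3 GREEN samples. Ngp and Ltf, of neutrophil granules, had 3 CTL counts each and ratios of 133 (counting interval 45.5 to 648) and 71.7 (24.3 to 349). Among 6 lymphocyte markers Cd52 rose by 4.27 and Cd4 fell by 2.55, while Cd3e and Cd79a were below the filter. Of 7 erythroid markers 0 passed in edgeR (2 at an unadjusted p under 0.05), 2 in DESeq2 and 0 in limma-voom, and Hbb-bs had a log2 fold change of 2.22 (adjusted p = 0.0701).

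The stellate cell and matrix list took 0.00422% to 0.0145% of the counts in CTL, 0.187% to 0.706% in GREEN and 0.0557% to 0.337% in RED. The endothelial list took 0.00631% to 0.0258% in CTL, 0.108% to 0.268% in GREEN and 0.0672% to 0.445% in RED. The macrophage list took 0.0125% to 0.0206%, 0.0335% to 0.154% and 0.0234% to 0.239% in the same order. RNA of these cell types was thus present in both groups from injured liver, and its part in the other results of this comparison was not tested.

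**Figure D3:**
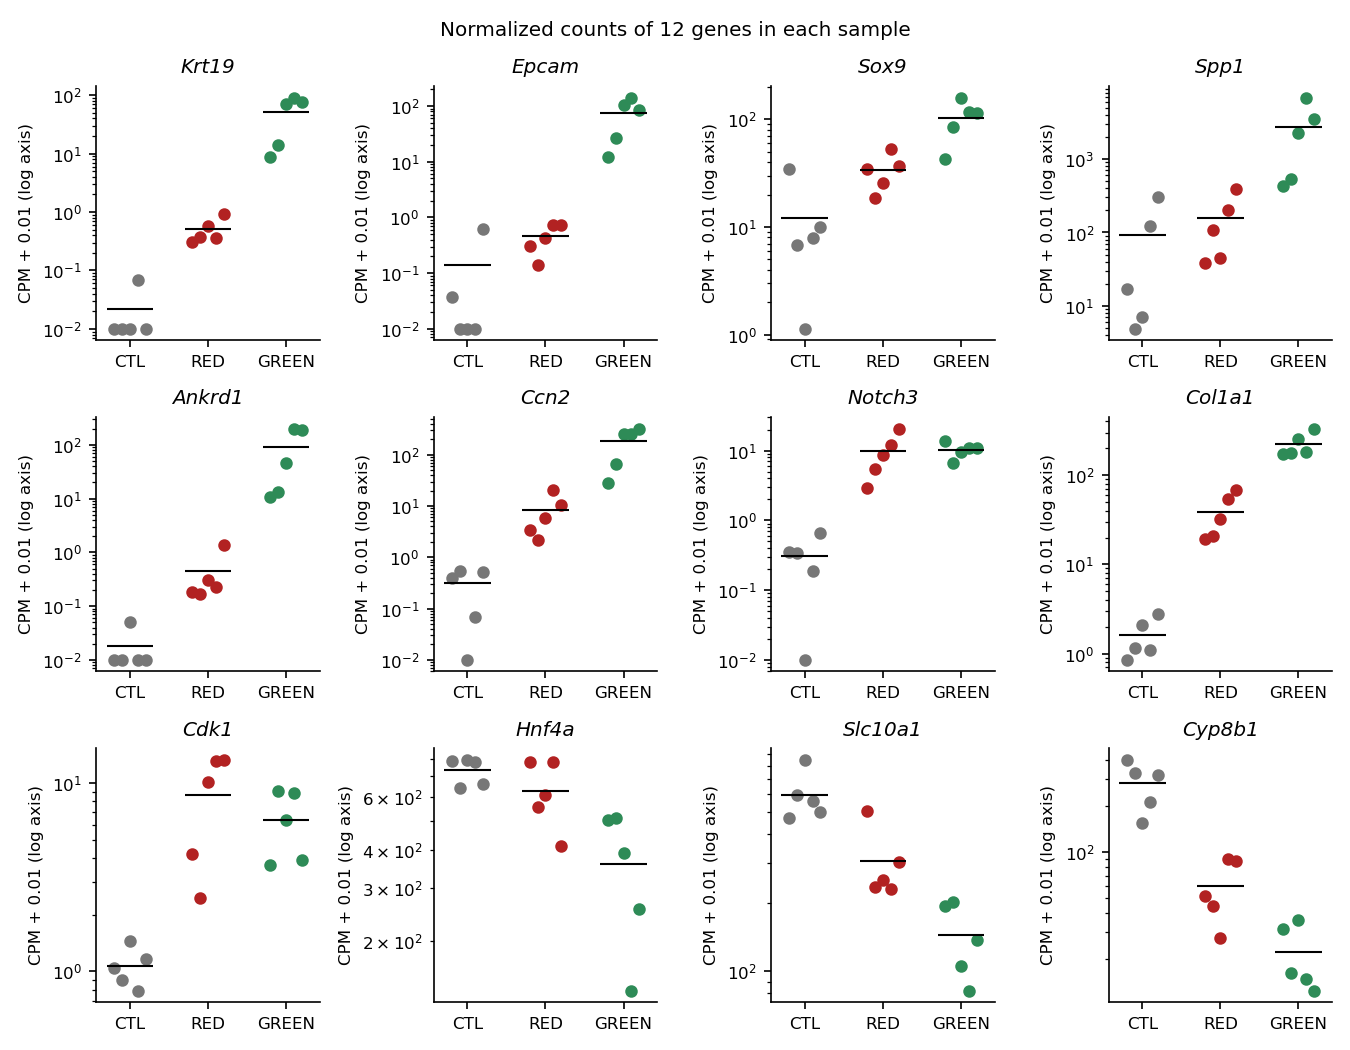
CPM + 0.01 on a log axis of 12 genes in the 5 samples each of CTL, RED and GREEN, with lines at the group means. Krt19, Epcam and Ankrd1 were at or near 0 in CTL and at 8.61 CPM or more in every GREEN sample, whereas Hnf4a, Slc10a1 and Cyp8b1 were lower in every GREEN than in every CTL sample.

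YAP and its partner TAZ (Wwtr1) are coactivators that the Hippo pathway restrains, and they act through the TEAD DNA-binding proteins. Of 24 genes listed as YAP targets or pathway members, 19 rose and 1 fell, 15 above CTL in every sample, with a median of 1.83. Ankrd1 (chr19:36111961-36120099), a textbook target, held 0, 0, 0.04, 0 and 0 CPM in CTL and 10.7, 13.5, 47.1, 202 and 193 CPM in GREEN. The single CTL count gives a ratio of 13521 (counting interval 2426 to 534064). Ccn2 (chr10:24595442-24598683), or connective tissue growth factor, held 0.392, 0.53, 0, 0.0599 and 0.514 CPM in CTL and 27.4, 64.9, 258, 250 and 323 CPM in GREEN, a log2 fold change of 9.02 (standard error 1.02, adjusted p = 0.000184). Ccn1 (chr3:145646976-145649981), a related matrix protein, held 33.7, 47.3, 76.4, 13.5 and 21.4 CPM in CTL and 86.7, 177, 398, 696 and 661 CPM in GREEN, a log2 fold change of 3.18 (standard error 0.58, adjusted p = 0.00198). GREEN 1 and GREEN 2 were again the lowest of their group for all 3 genes. The phosphatase Ptpn14 rose by 6.68 and the membrane repair protein Myof by 6.29. Yap1 itself held 73.6 to 91.5 CPM in CTL and 50.3 to 90.8 CPM in GREEN and did not pass (log2 -0.31, standard error 0.16, adjusted p = 0.127). The 1 gene that fell was Fgf1, a growth factor, by 1.77; it was named after its values were seen. By library totals 22 rose and 1 fell, and in experiment 2 alone 12 and 1.

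Promoter windows from 250 bases before to 50 bases after the gene start (RefSeq, GRCm38.p6) were searched for the core of the TEAD motif, GGAATG, on both strands. It occurred in 12.23% of the 11646 windows of tested genes, in 14.07% of those of genes that rose, 12.51% of those that fell and 11.11% of the rest. Windows were found for 17 of the 24 YAP genes and 10 of them (58.82%) held it. The list was drawn up from known targets, whose definition rests in part on such sites, so this share describes the list and is no result of the comparison. Ankrd1 and Ptpn14 are shown because they were near 0 in CTL, Ccn1 because it was already present there, and Amotl2, which encodes a scaffold protein of the Hippo pathway, for its smaller rise (log2 1.38, from 35.6 ± 5.3 to 94.2 ± 34.3 CPM; named after its values were seen). Capitals mark the motif, which reads CATTCC where it lies on the other strand.
Ankrd1, chr19:36119795-36120094, minus strand: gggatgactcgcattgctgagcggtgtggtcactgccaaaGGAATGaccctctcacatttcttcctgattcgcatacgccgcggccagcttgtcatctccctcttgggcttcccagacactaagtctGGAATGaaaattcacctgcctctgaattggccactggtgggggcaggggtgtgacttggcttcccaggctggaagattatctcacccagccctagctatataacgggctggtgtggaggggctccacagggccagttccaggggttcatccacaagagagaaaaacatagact
Ptpn14, chr1:189728018-189728317, plus strand: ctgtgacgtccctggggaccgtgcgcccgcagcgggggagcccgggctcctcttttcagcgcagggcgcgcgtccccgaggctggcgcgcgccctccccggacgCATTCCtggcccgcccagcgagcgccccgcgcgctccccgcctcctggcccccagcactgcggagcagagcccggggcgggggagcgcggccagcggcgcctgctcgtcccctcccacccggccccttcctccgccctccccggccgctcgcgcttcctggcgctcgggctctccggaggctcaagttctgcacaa
Ccn1, chr3:145649936-145650235, minus strand: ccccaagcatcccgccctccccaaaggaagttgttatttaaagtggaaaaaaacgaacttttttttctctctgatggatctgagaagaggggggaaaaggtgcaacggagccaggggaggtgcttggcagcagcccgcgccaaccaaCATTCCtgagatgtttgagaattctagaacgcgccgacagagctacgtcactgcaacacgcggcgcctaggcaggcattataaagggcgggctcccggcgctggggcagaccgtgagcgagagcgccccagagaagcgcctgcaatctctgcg
Amotl2, chr9:102717554-102717853, plus strand: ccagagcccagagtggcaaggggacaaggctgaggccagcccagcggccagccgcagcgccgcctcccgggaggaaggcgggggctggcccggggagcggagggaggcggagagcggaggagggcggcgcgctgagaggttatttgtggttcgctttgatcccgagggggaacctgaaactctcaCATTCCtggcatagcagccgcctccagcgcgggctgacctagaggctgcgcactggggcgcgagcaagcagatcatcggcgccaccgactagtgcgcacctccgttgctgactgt
The window of Ankrd1 held 2 matches, which begin 210 and 123 bases before the RefSeq start. Those of Ptpn14, Ccn1 and Amotl2 held 1 each, beginning 146, 103 and 65 bases before it. The Ankrd1 window lies inside the GENCODE coordinates of the gene given above, which start further upstream. The window of Myof, whose rise was as large as that of Ptpn14, held none. The motif TGANTCA of AP-1, another factor active in injured epithelium, occurred in 5.44% of all windows, in 5.77% of those of genes that rose and in 5.47% of those that fell.

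Notch is a receptor cleaved on contact with a neighboring cell that carries a Jagged or Delta ligand, and it directs liver precursors toward ducts. Of 18 Notch pathway genes tested 12 rose and 1, Rfng, fell, with a median of 2.39. The ligand gene Jag1 (chr2:137081456-137116644) held 6.67, 3.15, 4.72, 1.62 and 3.56 CPM in CTL and 21.3, 47.5, 126, 105 and 102 CPM in GREEN, a log2 fold change of 4.31 (standard error 0.56, adjusted p = 0.000335). Jag2 rose by 5.03. Among receptors Notch3 (chr17:32120820-32166852) rose from 0.298 ± 0.237 to 10.3 ± 2.6 CPM (log2 5.17, standard error 0.59), and was at 9.93 ± 6.89 CPM in RED. Notch2 held 76.8 to 176 CPM in CTL and 134 to 275 CPM in GREEN and did not pass (log2 0.40, standard error 0.17, adjusted p = 0.0808). Among target genes Nrarp rose by 5.02 and Hey1 by 4.48. Hes1 rose by 1.66 with 20.8 to 49.6 CPM in CTL and 32.2 to 227 CPM in GREEN, which overlap, and its call ended in experiment 2 alone and with the replicate block. Notch3 is also a gene of stellate and mural cells, whose markers rose in the same samples, and their part in its rise was not tested.

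Cytoskeletal and mesenchymal genes rose in the same samples. Of 29 tested 23 rose and 2 fell, with a median of 3.57. Vim, vimentin, held 0.925, 1.84, 0.959, 0.778 and 1.19 CPM in CTL and 23.9, 29.2, 43, 67.8 and 91.6 CPM in GREEN, a log2 fold change of 5.29 (standard error 0.42, adjusted p = 7.07e-05). The groups were far apart in every sample. S100a6, a calcium-binding protein, had 2 counts in CTL and a ratio of 1091 (counting interval 302 to 9015). Itgb4, the integrin of epithelial basement membrane contacts, rose by 6.37, the actin-binding thymosin Tmsb10 by 6.35 and the annexin Anxa3 by 5.99. The 2 that fell were Cdh2, the N-cadherin of hepatocytes, by 0.88 with overlapping groups, and Fn1, fibronectin, by 1.08; the Cdh2 call ended by library totals and in experiment 2 alone.

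Of 24 tight junction and polarity genes tested 10 rose (41.7%) and 5 fell (20.8%), beside 25.7% and 23.4% of all genes tested. The share that fell was thus near that of all genes. By library totals 18 rose and 0 fell, and in experiment 2 alone 7 and 1. The 5 that fell, named after their values were seen, were Cldn1, Cldn12, Cldn14, Pard3 and Esrp2. Claudins missing from CTL passed the count filter through GREEN alone, so they could only rise. Cldn8 was at least 607-fold, Cldn6 at least 543-fold and Cldn10 at least 186-fold higher. Esrp1, a splicing factor of epithelia, had 1 CTL count and a ratio of 2128 (counting interval 382 to 84059), and Grhl2, a transcription factor of epithelial junctions, rose by 3.90. Cldn2, which CTL expressed, held 54.8 to 146 CPM in CTL and 42.8 to 78.3 CPM in GREEN and did not pass (log2 -0.34, adjusted p = 0.277). Genes of the primary cilium, a sensory organelle of bile duct cells, had 14 of 30 higher and 2, Ift20 and Ift52, lower, with a median of 0.55. These shares were 46.7% and 6.7%, beside 25.7% and 23.4% of all genes tested. By library totals 27 rose and 0 fell, with a median of 1.40. Ift57, of ciliary transport, rose by 4.50, Ift122 by 1.98 and Ift43 by 1.60, and Pkd2, the polycystin channel, from 33.8 to 110 CPM (log2 1.60, standard error 0.31). Ift88 did not pass (log2 0.34, adjusted p = 0.173). In experiment 2 alone 5 of the 30 rose, without Ift43, and 0 fell.

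Of 27 chemokines and cytokines tested 20 rose and 1, Ccl9, fell, with a median of 3.05. Cx3cl1, or fractalkine, had 3 counts in CTL and a ratio of 858 (counting interval 293 to 4162). Tgfb2, a transforming growth factor, held 0.0841, 0.139, 0.16, 0 and 0.0321 CPM in CTL and 3.74, 7.09, 18.4, 23.2 and 17.9 CPM in GREEN, a log2 fold change of 7.13 (standard error 0.65, adjusted p = 9.43e-05). Like the duct genes and the shares of the stellate cell and macrophage lists, it was lowest in GREEN 1 and GREEN 2. Ccl3 rose by 6.67, Ccl4 by 6.19 and Ccl2, which attracts monocytes, by 5.72. Cxcl5, which attracts neutrophils, rose by 2.90, a call that ended in experiment 2 alone, with the replicate block, and without CTL 4, GREEN 3, or GREEN 3 and GREEN 4. Ccl2, Ccl3 and Ccl4 are made by macrophages, whose markers rose in the same samples, and RED held 7.65, 7.07 and 15.6 CPM of them against 9.77, 7.40 and 10.5 CPM in GREEN. The part of macrophages in these rises was not tested.

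Genes of the hepatocyte program fell, with smaller changes. Of 29 mature hepatocyte markers tested 23 fell and 0 rose, 20 below CTL in every sample, with a median of -1.43. By library totals 8 of the 29 fell, beside 358 of all 15798 genes, with a median of -0.61 where that of all genes was 0.81. In experiment 2 alone 4 of the 29 fell, beside 692 of the 16324 genes tested there. In experiment 1 alone 24 of the 29 fell, beside 3043 of the 15341 genes tested there. The count was 12 without GREEN 5, 12 with the replicate block and 9 without GREEN 3 and GREEN 4. Hnf4a (chr2:163506808-163572910), the nuclear receptor that maintains hepatocyte identity, held 786, 639, 795, 780 and 660 CPM in CTL and 504, 509, 392, 137 and 255 CPM in GREEN, a log2 fold change of -1.14 (standard error 0.31, adjusted p = 0.0134). The groups did not overlap, and GREEN 4 was lowest. Its call ended by library totals, in experiment 2 alone, with the replicate block and without GREEN 3 and GREEN 4. Alb (chr5:90460897-90476602), albumin, held 70486, 96408, 135705, 101250 and 84307 CPM in CTL and 38120, 56627, 25760, 24386 and 24353 CPM in GREEN, and although no sample overlapped it did not pass (log2 -1.54, standard error 0.79, adjusted p = 0.133). Ttr, transthyretin, overlapped between the groups and did not pass (log2 -0.92, adjusted p = 0.0502). The antitrypsin genes Serpina1a, Serpina1b and Serpina1c fell by 1.98, 2.02 and 2.09, with reads that near-identical copies may share; the Serpina1a call ended in experiment 2 alone. F9, a vitamin K-dependent clotting protease, averaged 339 CPM in CTL and 95.2 CPM in GREEN, and fell by 1.84 on the log2 scale.

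The 12 largest falls were Mup19, Mup15, Ces4a, Mup16, Dct, Sult5a1, Acpp, Cyp8b1, Mup22, Slc2a5, Xirp1 and Nxpe2. The Mup genes encode urinary pheromone-binding proteins made by liver, and their near-identical copies make the split of reads among them uncertain. Cyp8b1 (chr9:121914356-121916305), which makes the 12-hydroxylated bile acids, held 403, 327, 154, 214 and 321 CPM in CTL and 31.5, 16, 36, 14.8 and 12.3 CPM in GREEN, a log2 fold change of -3.70 (standard error 0.24, adjusted p = 5.83e-05). No sample overlapped, which the rule for the largest falls required. The drop was as deep in GREEN 2 as in GREEN 4, and RED held 60.3 ± 27.8 CPM. Sult5a1, a sulfotransferase, fell by 3.83, the melanin enzyme gene Dct by 3.85, Acpp, an acid phosphatase, by 3.75, Ces4a, a carboxylesterase, by 5.27, Xirp1 by 3.40 and Nxpe2 by 3.27. Slc2a5, the fructose transporter, fell by 3.49, a call that ended with DESeq2 and in experiment 2 alone, where those of Mup16 and Mup22 ended too.

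Bile acid genes fell broadly: of 28 tested 22 fell and 1, the export pump Abcc4, rose, with a median of -1.43. Slc10a1 (chr12:80953183-80968705), the importer of conjugated bile acids, held 472, 598, 852, 562 and 504 CPM in CTL and 193, 202, 106, 81.9 and 136 CPM in GREEN (log2 -2.07, standard error 0.30, adjusted p = 0.000618). Abcb11 (chr2:69238282-69342616), the bile salt export pump, fell from 973 ± 88 to 288 ± 200 CPM (log2 -1.92, standard error 0.41), a call that ended in experiment 2 alone. The importer Slco1a1 and the exporter subunit Slc51b both fell by 2.71. Abcc4 held 0.359 to 6.60 CPM in CTL and 6.47 to 29.8 CPM in GREEN (log2 3.09, adjusted p = 0.0127), a call that ended in experiment 2 alone and without GREEN 3 and GREEN 4. Cyp7a1, the rate-limiting enzyme of bile acid synthesis, ranged from 35.5 to 882 CPM in CTL and from 20.8 to 593 CPM in GREEN and did not pass (log2 -0.83, standard error 1.32, adjusted p = 0.629), nor did Abcc3 (log2 -0.60, adjusted p = 0.237). By library totals 11 bile acid genes fell and 3 rose, and in experiment 2 alone 7 and 0.

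Genes of both liver zones were among those that fell. Of 28 pericentral genes, expressed around the central vein, 12 fell (42.9%) and 0 rose (median -1.16). Of 30 periportal genes 16 fell (53.3%) and 0 rose (median -1.27), beside 23.4% lower and 25.7% higher of all genes tested. Only 3 of the 28 pericentral genes lay below CTL in every sample, against 13 of the 30 periportal genes and 13.1% of all genes tested. By library totals 2 pericentral genes fell and 4 rose, 1 periportal gene fell and 2 rose, and in experiment 2 alone 1 fell in each list. The pericentral count was 6 without CTL 2, 7 without CTL 3, GREEN 3 or GREEN 4, 5 without GREEN 5 and 3 without GREEN 3 and GREEN 4, where 10 periportal genes fell. Cyp27a1, of bile acid synthesis, fell by 1.80 and Slco1b2, an organic anion importer, by 1.71, a call that ended in experiment 2 alone. Glul, glutamine synthetase of the cells next to the central vein, fell by 0.97, Cyp2e1 by 1.55 and Cyp1a2 by 1.32. Their groups overlapped, and their calls ended in 5, 11 and 4 of 23 alternatives, among them, for Glul, without CTL 2 and, for Cyp1a2, without GREEN 5. Cyp2e1 lost its call without any 1 of CTL 1, CTL 2, CTL 3, CTL 4, GREEN 2, GREEN 3, GREEN 4 and GREEN 5. Lgr5, a Wnt target of the same cells, did not pass (log2 -0.46, adjusted p = 0.55). On the periportal side Cyp2f2 fell from 2427 to 560 CPM (log2 -2.17, standard error 0.42). Uox fell by 1.46, and it no longer passed by library totals, in experiment 2 alone, with the replicate block or without GREEN 3 and GREEN 4. Hal fell by 1.47, with its call lost in 12 alternatives, among them without CTL 1, CTL 2, CTL 3, CTL 4, CTL 5, GREEN 2, GREEN 4 or GREEN 5, and Sds did not pass (log2 -0.83, adjusted p = 0.226).

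Of 31 cytochrome P450 and conjugation genes 17 fell and 0 rose (median -1.49), 9 by library totals, 8 in experiment 2 alone, 11 without GREEN 5 and 9 without GREEN 3 and GREEN 4. Sult2a8, a sulfotransferase, fell by 2.60, Cyp2c70 by 2.00, Cyp4v3 by 1.92 and Ugt2b5 by 1.69. The inducible genes Cyp2b10 (log2 -1.36, adjusted p = 0.429) and Cyp3a11 (log2 -0.67, adjusted p = 0.189) did not pass. Of 24 cholesterol synthesis genes 17 fell and 0 rose (median -1.21), against 3 by library totals and 2 in experiment 2 alone. Sc5d fell by 1.88, Dhcr7 by 1.63, Msmo1 by 1.62 and Insig1, which holds back the pathway, by 1.58, while Sqle, which oxidizes squalene, did not pass (log2 -1.09, adjusted p = 0.0891). The calls of Sc5d, Dhcr7 and Msmo1 ended in experiment 2 alone, and those of Dhcr7 and Msmo1 by library totals too.

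Of 25 genes of lipogenesis and lipid storage 10 fell (40%) and 4 rose (16%), beside 23.4% and 25.7% of all genes tested, with a median of -0.81. By library totals 3 fell and 5 rose with a median of 0.0047, and in experiment 2 alone 2 and 3. Scd2 (chr19:44293674-44306864), a desaturase little used by adult hepatocytes, held 1.23, 2.20, 0.719, 0.838 and 1.41 CPM in CTL and 24, 52.6, 200, 228 and 124 CPM in GREEN (log2 6.54, standard error 0.73, adjusted p = 0.000171). Its relative Scd1, the main desaturase of liver, did not pass (log2 -0.85, adjusted p = 0.347). Lpl, lipoprotein lipase, rose by 3.93 and Fabp4, which endothelial cells also express, by 3.91. Cd36, a fatty acid importer, rose by 2.14, and its call ended in 11 alternatives, among them without CTL 1, CTL 4, CTL 5 or any 1 GREEN sample. Thrsp, a regulator of lipogenesis, fell by 2.80, and Fasn, fatty acid synthase, by 1.54 with overlapping groups and a call lost in 11 alternatives, among them without CTL 1, CTL 2, CTL 3, GREEN 1, GREEN 4 or GREEN 5. Of 27 fatty acid oxidation genes 18 fell and 0 rose (median -0.84), but 1 fell and 1 rose by library totals, and in experiment 2 alone 0 passed in edgeR, with 4 at an unadjusted p under 0.05. In experiment 1 alone 19 fell, and without GREEN 3 and GREEN 4 5 fell. Acaa2 fell by 0.98, Etfb by 0.94, Acadvl by 0.93 and Ppara, the receptor that drives the pathway, by 1.73. All 4 calls were lost in experiment 2 alone, those of Acaa2, Etfb and Acadvl by library totals and that of Acadvl without GREEN 3 and GREEN 4. Cpt1a did not pass (log2 -0.63, adjusted p = 0.122).

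Of 30 genes of the urea cycle and amino acid catabolism 22 fell (median -1.28), 1 by library totals and 0 in experiment 2 alone in edgeR, where 4 had an unadjusted p under 0.05. In experiment 1 alone 26 fell, without CTL 4 13, without GREEN 5 11 and without GREEN 3 and GREEN 4 9. Cps1 (chr1:67123026-67231259), the entry enzyme of the urea cycle, held 7887, 8409, 7326, 7386 and 8891 CPM in CTL and 5337, 5550, 2442, 735 and 1692 CPM in GREEN, a log2 fold change of -1.58 (standard error 0.49, adjusted p = 0.0227). GREEN 1 and GREEN 2 stayed nearest to CTL. Its call ended in 7 alternatives, among them without GREEN 3 and without GREEN 5. Haao fell by 1.48, Ftcd by 1.46, Arg1 by 1.45 and Otc by 1.39. These calls were lost in experiment 2 alone, those of Ftcd, Arg1 and Otc by library totals, and that of Arg1 with the replicate block and without GREEN 3 and GREEN 4. Ass1 fell by 1.24 with overlapping groups and a call lost in 15 alternatives, among them without CTL 1, CTL 2, CTL 3, CTL 4, CTL 5, GREEN 3, GREEN 4 or GREEN 5. Of 29 coagulation and complement genes 26 fell and 0 rose (median -1.45). By library totals 13 fell and 1 rose. In experiment 1 alone 26 fell, in experiment 2 alone 4 and without GREEN 3 and GREEN 4 14. F11 fell by 1.95, F7 by 1.69 (not in experiment 2 alone), C8g by 1.66, and C9 by 1.97 with overlapping groups and a call lost in 10 alternatives, among them without CTL 1, CTL 4, CTL 5, GREEN 4 or GREEN 5.

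All 30 nuclear-encoded respiratory chain genes fell with TMM (27 below CTL in every sample, median -0.84), but 0 passed by library totals in edgeR, where their median was -0.02 and 0 had an unadjusted p under 0.05. As a share of all counts they took 0.426% to 0.522% in CTL and 0.409% to 0.506% in GREEN, which overlap. In experiment 2 alone 11 fell. Sdhd fell by 1.05, Sdhb by 1.04, Sdha by 1.03, Cox5a by 0.95 and Cox4i1 by 0.75 on the TMM scale, and by library totals Cox4i1 turned to 0.08. The direction of this list therefore rests on the scaling. Its median lay below that of all genes with both, at -0.84 against -0.02 with TMM and -0.02 against 0.81 by library totals. Of the bile duct list 27 of 30 rose by library totals, beside 9301 of all 15798 genes.

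**Figure D4:**
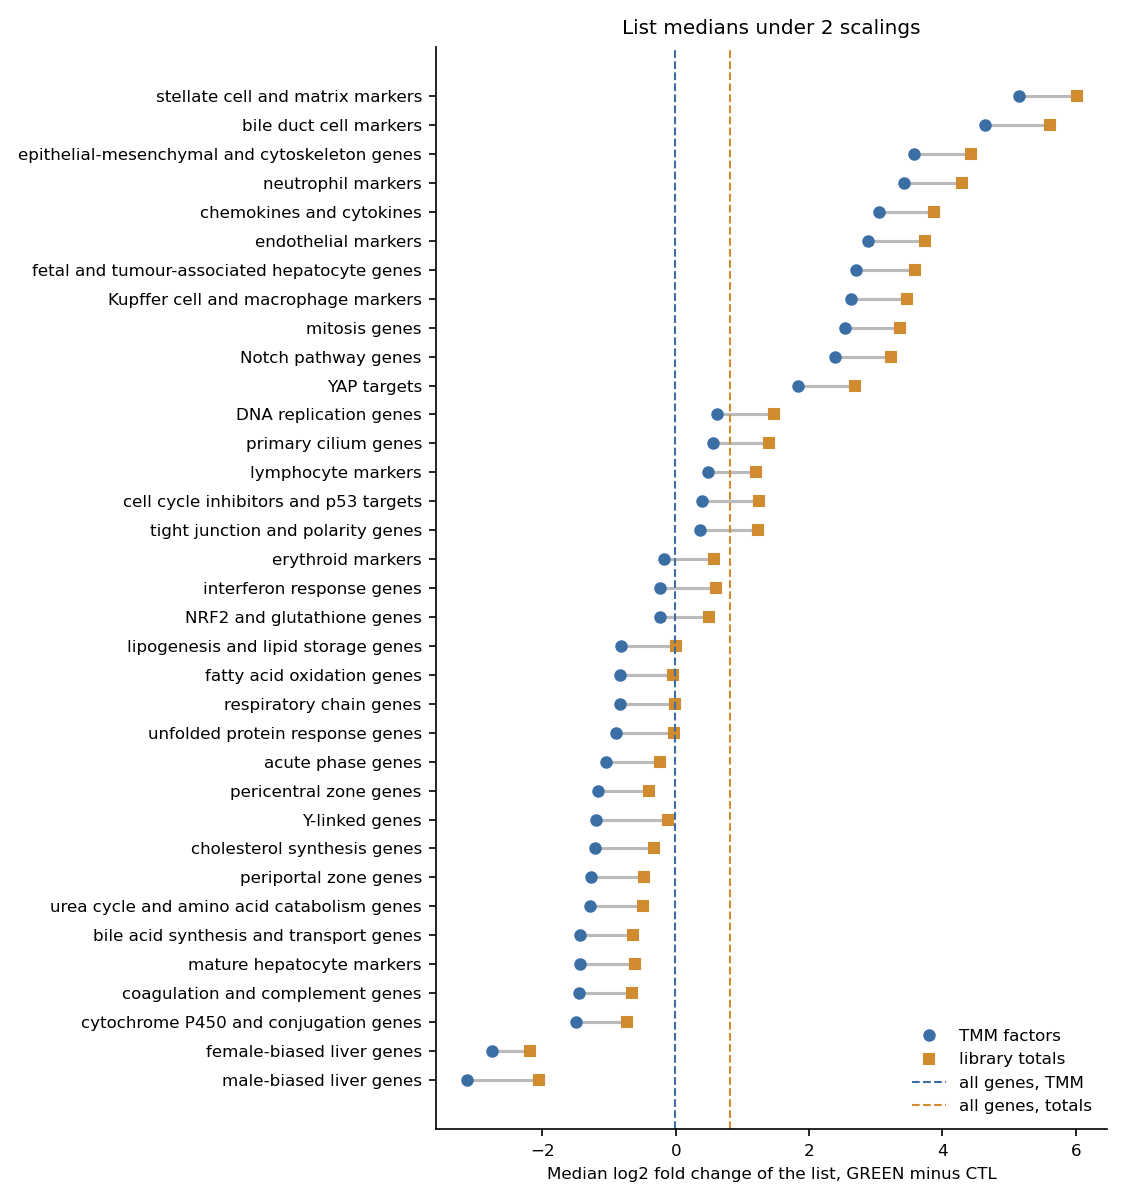
Median log2 fold change (GREEN minus CTL) of each gene list with TMM factors (circles) and with library totals (squares); dashed lines are the medians of all genes, -0.02 and 0.81. The respiratory chain median moved from -0.84 to -0.02, while the bile duct median was 4.64 and 5.61.

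Genes of cell division were higher in GREEN, at low levels. Of 30 mitosis genes 27 rose and 0 fell (median 2.54), 10 of them above CTL in every sample, and 13 rose in experiment 1 alone, 18 in experiment 2 alone and 12 without GREEN 3 and GREEN 4, and 17 with limma-voom. Cdk1 (chr10:69335146-69352938), the kinase that starts mitosis, held 1.04, 0.892, 1.44, 0.778 and 1.16 CPM in CTL and 3.65, 9.12, 6.38, 8.82 and 3.90 CPM in GREEN, a log2 fold change of 2.58 (standard error 0.34, adjusted p = 0.000387). Here GREEN 1 and GREEN 5 were low and GREEN 2 and GREEN 4 high, an order other than that of the duct genes, and RED held 8.63 ± 5.06 CPM. Racgap1 rose by 3.13, Bub1b by 3.04, Aurkb by 2.76 and Cenpf by 2.63. Mki67, of dividing cells, rose by 2.84 and Ccnb1, a mitotic cyclin, by 2.85, with overlapping groups; both calls ended with limma-voom, in experiment 1 alone and without GREEN 3 and GREEN 4, and that of Cenpf with limma-voom. Which cells of the samples divided was not measured.

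Of 30 DNA replication genes 13 rose (43.3%) and 3 fell (10%), beside 25.7% and 23.4% of all genes tested, with a median of 0.61. By library totals 24 rose and 1 fell, and in experiment 2 alone 1 and 0. Without GREEN 3 8 rose, without GREEN 3 and GREEN 4 5, and 1 fell without any 1 of CTL 2, CTL 3, CTL 4, CTL 5, GREEN 3, GREEN 4 and GREEN 5. Lig1, a DNA ligase, rose by 2.00 and the polymerase genes Pole and Pold1 by 1.31 and 0.85, calls that all ended in experiment 2 alone. Mcm2, of the replicative helicase, rose by 1.15 with a call lost in 13 alternatives, among them without any 1 library other than CTL 5 and GREEN 1, and Pcna did not pass (log2 0.58, adjusted p = 0.0576). Mcm10 and Tk1 were among those that fell. Of 26 cell cycle inhibitors and p53 targets 10 rose (38.5%) and 2, Fas and Perp, fell (7.7%), with a median of 0.40. By library totals 22 rose and 0 fell (median 1.25), in experiment 2 alone 3 and 0, and without GREEN 3 and GREEN 4 6 and 1. Phlda3 rose by 4.72, Cdkn2b, which encodes p15, by 3.40, Pmaip1 by 2.61 and Plk2 by 2.01, the last pair with calls that ended in experiment 2 alone. Cdkn1a, which encodes p21, ranged from 1.61 to 31.1 CPM in CTL and from 5.26 to 62.4 CPM in GREEN and did not pass (log2 2.13, adjusted p = 0.0845). Mdm2, another p53 target, held 30.2 to 35.7 CPM in CTL and 25.8 to 31.2 CPM in GREEN and did not pass (log2 -0.15, adjusted p = 0.226). Cdkn2a was below the filter.

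Genes listed as fetal or tumour-associated in hepatocytes had 14 of 20 higher and 0 lower (median 2.70). Beside Cd24a, Scd2 and Lpl, the transcription factor gene Sox4 held 0.785, 1.03, 0.48, 0.419 and 0.642 CPM in CTL and 29.2, 41.5, 123, 163 and 165 CPM in GREEN (log2 7.06, standard error 0.60, adjusted p = 8.91e-05). The proteoglycan gene Gpc3 rose by 5.19. Afp, the fetal albumin relative that gives such lists their name, held 3.59 to 5.80 CPM in CTL and 1.34 to 3.74 CPM in GREEN and did not pass (log2 -0.77, adjusted p = 0.0569). Cd24a and Sox4 are also genes of bile duct cells, so these members do not mark fetal hepatocytes alone.

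Stress and inflammation lists gave mixed values. Of 27 acute phase genes 9 fell (33.3%) and 1 rose (3.7%), beside 23.4% and 25.7% of all genes tested, with a median of -1.05. The 1 that rose was the interleukin antagonist gene Il1rn, by 2.50, a call that ended in experiment 2 alone. By library totals 3 fell and 2 rose, in experiment 2 alone 0 passed in edgeR (median -0.21), 5 fell without GREEN 5, 4 with the replicate block and 2 without GREEN 3 and GREEN 4, and without CTL 4 the median was -0.45. Saa1, serum amyloid A, held 1452, 45.3, 42.8, 5782 and 1130 CPM in CTL and 4375, 123, 161, 123 and 406 CPM in GREEN and did not pass (log2 -0.73, standard error 1.79, adjusted p = 0.762). CTL 4 and GREEN 1 were far above the other samples of their groups. Orm1 (log2 -1.09, adjusted p = 0.271) and Lcn2 (log2 0.94, adjusted p = 0.608) were highest in the same samples and did not pass. The fibrinogen genes Fgb and Fgg fell by 1.56 and 1.53, calls that ended in experiment 2 alone, with the replicate block, without GREEN 5 and without GREEN 3 and GREEN 4, and that of Fgb also by library totals. Apcs fell by 1.48, a call lost by library totals, in experiment 2 alone and without GREEN 3 and GREEN 4.

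Of 30 interferon response genes 6 rose (20%) and 8 fell (26.7%), near the 25.7% and 23.4% of all genes tested, with a median of -0.23. By library totals 11 rose and 1 fell (median 0.60), in experiment 2 alone 2 and 2, and 5 fell without any 1 of CTL 2, CTL 3, CTL 5, GREEN 4 and GREEN 5. Ifit2 rose by 3.59, Oasl2 by 2.89 and the GTPase gene Iigp1 fell by 1.58, while Isg15 did not pass (log2 -0.19, adjusted p = 0.682). Of 27 NRF2 and glutathione genes 6 rose (22.2%) and 9 fell (33.3%), beside 25.7% and 23.4% of all genes tested, with a median of -0.24. By library totals 12 rose and 0 fell (median 0.50), in experiment 2 alone 3 and 2, and without GREEN 3 and GREEN 4 5 and 5. Cbr3 rose by 5.94, Akr1b8 by 4.31, Abcc1 by 3.18 and G6pdx by 1.69, the last a call that ended in experiment 2 alone, and the classical target Nqo1 did not pass (log2 -0.24, adjusted p = 0.793). Of 26 genes of the unfolded protein response, which relieves the endoplasmic reticulum, 13 fell and 1, Atf3, rose (median -0.90), but 0 fell and 3 rose by library totals. The count that fell was 3 without CTL 5, 4 without CTL 4 or GREEN 5, 5 without GREEN 4, 8 without GREEN 3, 3 with the replicate block and 0 in experiment 2 alone. Edem1 fell by 1.16, Atf6 by 0.78 and Canx by 0.76 with TMM, and by library totals Atf6 and Canx turned to 0.06 and 0.10. The chaperone gene Hspa5 (log2 -0.32, adjusted p = 0.611) and Ddit3 (log2 0.67, adjusted p = 0.221) did not pass.

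Growth hormone sets liver genes that differ between males and females. Of 22 male-biased genes 12 fell and 0 rose (median -3.13), but 4 fell without CTL 4, 4 in experiment 2 alone and 7 with limma-voom. Of 15 female-biased genes tested 2 (13.3%), Cyp3a41a and Cyp2c69, fell and 1 (6.7%), Ntrk2, rose, beside 23.4% and 25.7% of all genes (median -2.75). Without CTL 2 this became 0 lower and 2 higher with a median of -0.10, 0 were lower without CTL 3, GREEN 3, GREEN 4 or GREEN 5, and limma-voom gave 0 lower and 3 higher with a median of -0.56. The groups were not balanced in Y-linked RNA, which was high in 3 CTL and 2 GREEN libraries. In libraries with high Y-linked RNA, the mean log2(CPM + 0.5) of the male-biased genes was 9.64, 10.17 and 9.41 in CTL 1, CTL 4 and CTL 5 and 6.37 and 5.83 in GREEN 3 and GREEN 4. In libraries with low Y-linked RNA, that of the female-biased genes was 7.63 and 7.59 in CTL 2 and CTL 3 and 3.31, 5.26 and 3.11 in GREEN 1, GREEN 2 and GREEN 5. GREEN was lower than CTL in both of these sets. At high Y-linked RNA the female-biased mean was higher in GREEN, at 1.57 and 1.32 in GREEN 3 and GREEN 4 against 0.15, 0.16 and 0.38 in CTL 1, CTL 4 and CTL 5. At low Y-linked RNA the male-biased mean was 4.28 and 4.84 in CTL 2 and CTL 3 and 4.14, 2.49 and 3.39 in GREEN 1, GREEN 2 and GREEN 5. With Y-linked RNA as a term in the fit, 17 male-biased genes fell and 0 rose, and 5 female-biased genes fell and 2 rose with a median of -0.75. Over all genes that fit gave 4174 higher and 3975 lower.

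Mup19 (chr4:61778324-61782269) held 501, 427, 858, 289 and 33.6 CPM in CTL and 0.791, 0, 1.86, 0.618 and 0.445 CPM in GREEN (log2 -9.09, standard error 1.25, adjusted p = 0.000452), with reads that other Mup copies may share. Genes named among the largest falls had to lie below CTL in every GREEN library, so that trait of Mup19 follows from the rule. In CTL its level did not follow Y-linked RNA. It was 858 CPM in CTL 3, where that RNA was low, and 33.6 CPM in CTL 5, where it was high. Slco1a1 fell by 2.71, Nudt7 by 2.49 and Ugt2b1 by 2.21 among male-biased genes. Ntrk2, a neurotrophin receptor, held 1.37, 8.00, 4.24, 0.299 and 1.22 CPM in CTL and 64.2, 61.6, 20.2, 10.2 and 24.5 CPM in GREEN (log2 3.44, standard error 0.76, adjusted p = 0.00487). RED held 52.7 CPM of it on average. None of the 4 Y-linked genes passed in edgeR (0 at an unadjusted p under 0.05, and 0 with DESeq2 or limma-voom).

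**Figure D5:**
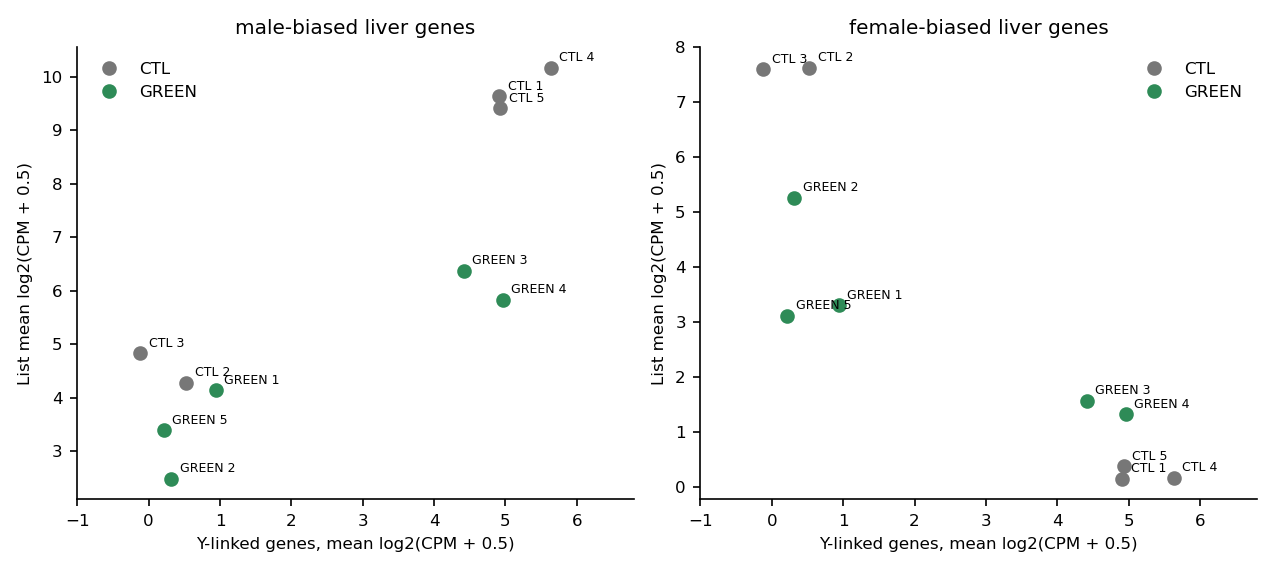
Mean log2(CPM + 0.5) of the male-biased (left) and female-biased (right) liver genes against that of the Y-linked genes, 1 point per sample of CTL and GREEN. At high Y-linked RNA the male-biased mean was 9.41 to 10.17 in CTL and 5.83 to 6.37 in GREEN, and at low Y-linked RNA the female-biased mean was 7.59 to 7.63 and 3.11 to 5.26.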

How the data were processed

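RNA of hepatocyte populations was sequenced in 2 experiments from 150 ng of total RNA each. The deposited tables hold estimated counts per gene for 19 libraries of 15 samples, made by the authors with kallisto 0.43.1 and build GRCm38, per the submitters' processing notes. Neither the annotation release nor the way transcripts were summed is given in those notes or the labels. Estimated counts were rounded to whole numbers. Gene symbols and coordinates came from GENCODE M21 of the same build.

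The 10 libraries of GREEN and CTL, 1 per sample, were fitted with edgeR 4.0.16 in R 4.3.3 (filterByExpr, TMM scaling, quasi-likelihood F test) with experiment and group as terms. CTL 5, which has a library in both experiments, entered by that of experiment 2. Adjusted p-values are Benjamini-Hochberg over 15798 genes with a threshold of 0.05, every adjusted p printed comes from this fit, and standard errors were taken from the fold change and the F statistic. Nothing says how the samples of a group were kept apart beyond their being biological replicates.

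CPM used TMM-scaled library sizes. Ratios over 1 to 3 CTL counts carry 95% intervals, and a group at 0 was set to a floor of 3 counts; both cover counting error only. Counts were simulated for this comparison with 100 genes changed 2-fold and 100 changed 4-fold among 15798, up as often as down. Of these 23% and 71% were recovered, and 6 unchanged genes were called. In the data far more genes, 7769, were called, and the scalings differed. The simulated rates therefore do not carry over to the fit and do not test its scaling.

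Named genes were the 12 largest changes in each direction among called, non-overlapping protein-coding genes of 5 CPM or more, the 4 largest such members of each of 35 lists at 1 CPM or more, fixed examples of each list, and Spp1; some genes that this rule names are not reported here. The lists and the comparison were chosen with earlier results of these data known. Alternatives were other scalings and filters, DESeq2 1.42.0, limma 3.58.1 with voom, all 3 groups in 1 fit, each experiment alone, other covariates, and leaving out each library.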

Additional observations from a re-analysis of the deposited data

Results flagged for a closer look

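Of 466 groups of 5 samples examined, 44 had a sample whose gap to the nearest other exceeded 0.71 of the group's range; chance flags about 1 in 20 groups. Such samples are given with their values.

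Acute phase RNA stood out in CTL 4 and GREEN 1. The mean log2(CPM + 0.5) of the acute phase genes was 10.2 in CTL 4. Saa1 was at 5782 CPM in CTL 4 and 4375 CPM in GREEN 1, Orm1 at 5644 CPM in CTL 4 and Lcn2 at 1622 CPM in GREEN 1. GREEN 1 also stood apart in F11 (68.7 CPM), Nudt7 (145 CPM) and Slc2a5 (4.10 CPM).

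GREEN 2 stood apart in lipid and bile acid genes. The mean of its lipogenesis genes was 6.27. It held 593 CPM of Cyp7a1, 73.5 CPM of Cyp2b10, 325 CPM of Abcc3, 81.2 CPM of Thrsp, 9.46 CPM of Nqo1 and, as the lowest, 147 CPM of Reln. GREEN 3 held 12 CPM of Mup16 and GREEN 4 8.89 CPM of Emcn.

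CTL 2 was highest of its group in genes of other liver cells, with 28.4 CPM of Clec4f, 4.79 CPM of Adgre1, 0.725 CPM of Lyve1, 0.613 CPM of Emcn and 0.0836 CPM each of Ngp and Ltf. CTL 1 held 34.8 CPM of Sox9, 31.1 CPM of Cdkn1a and 0.028 CPM of Mfap4. CTL 3 held 146 CPM of Cldn2, 13.4 CPM of Ddit3, 2.12 CPM of Ccnb1, 0.04 CPM of Ankrd1 and, as the lowest, 0.04 CPM of Cdkn2b. CTL 4 held 768 CPM of Sult2a8, 0.419 CPM of S100a8, 0.0599 CPM each of Krt19 and Cldn4 and, as the lowest, 0.0599 CPM of Cenpf. CTL 5 held 5.75 CPM of Mcm2, 1.73 CPM of Fabp4, 0.61 CPM of Epcam, 0.0642 CPM of S100a6, 0.0321 CPM each of Lamc3, Lox and Esrp1 and, as the lowest, 258 CPM of Cyp1a2. Several of these CTL values are 1 or a few counts.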

How the results depend on the processing

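Of 171 named genes called, 110 passed under every alternative that tested them, 29 lost the call by library totals and 55 in experiment 2 alone. The 4066 genes higher became 9301 by library totals and 2405 in experiment 2 alone, and the 3703 lower became 358, 692 and, without GREEN 3 and GREEN 4, an alternative chosen after seeing the data, 1916. In experiment 1 alone 4600 were higher and 3043 lower. The cause was not tested. Without each replicate in turn 3556 to 4477 genes were higher and 2605 to 3609 lower. With the title number as a replicate block 3356 were higher and 2685 lower; the numbers do not pair healthy with injured animals, and deviations of same-numbered samples correlated between -0.295 and 0.0165.

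Genes that changed sign were mostly not called. By library totals the log2 fold change was 0.70 for Mdm2, 0.54 for Yap1, 0.49 for Cldn2, 0.29 for Lgr5, 0.20 for Cyp3a11, 0.16 for Abcc3, 0.16 for Cpt1a, 0.047 for Saa1, 0.68 for Isg15, 0.48 for Nqo1, 0.58 for Hspa5 and 0.017 for Afp, and, of called genes, 0.056 for Atf6, 0.10 for Canx and 0.077 for Cox4i1. In experiment 2 alone it was 0.35 for Lgr5, 0.58 for Cyp7a1, 0.81 for Saa1, 0.11 for Isg15, 0.090 for Nqo1 and 0.12 for Hspa5, and in experiment 1 alone 0.066 for Mdm2 and -1.27 for Lcn2. With the replicate block Saa1 was at 0.12 and Nqo1 at 0.33, with a Y-linked term at 1.68 and 0.32, and with limma-voom Nqo1 at 0.24. Without GREEN 3 and GREEN 4 Cyp7a1 was at 0.049 and Saa1 at 0.33. Leaving out 1 replicate at a time gave -0.76 (without CTL 5) to 0.10 (without CTL 3) for Lgr5, -2.56 (GREEN 2) to 0.084 (CTL 3) for Cyp2b10, -2.21 (GREEN 2) to 0.59 (CTL 3) for Cyp7a1, -2.97 (GREEN 1) to 1.34 (CTL 4) for Saa1, -1.002 (GREEN 1) to 2.22 (CTL 4) for Lcn2, -0.50 (GREEN 3) to 0.073 (CTL 2) for Isg15, -0.57 (GREEN 2) to 0.54 (CTL 2) for Nqo1 and -0.56 (CTL 2) to 0.18 (CTL 5) for Hspa5. The cause was not tested.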
